A study of Homo sapiens with 9 samples.

Results

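Metalloproteinases and their TIMP inhibitors were followed in the colorectal cancer cell line LIM1215 and in LIM1215-R1 and LIM1215-R2, which had acquired resistance to cetuximab. The set holds 10 genes of the 58920 listed: the inhibitors TIMP1, TIMP2 and TIMP3, the matrix metalloproteinases MMP7, MMP14 and MMP15, the secreted proteases ADAMTS1 and ADAMTS9, and the membrane proteases ADAM9 and ADAM15. They were taken by gene symbol. TIMP2, TIMP3 and ADAMTS9 were picked by their change in these same libraries, so their values are given as a description with no test, and they are left out of every count below. The SE and the overlap of libraries given for them describe spread only and are not read as support for a change. A minimum of 10 counts over the 9 libraries was passed by 8 of the 10 genes, and 19102 genes passed it in all. MMP7, with 1 count in LIM1215-R1 replicate 1 and 0 in the other libraries, and ADAMTS1, with 0 counts in every library, did not pass. Levels are given as CPM, counts scaled to the size of a library. With 0 counts a transcript may still be present below the level of 3 counts, which was 0.158 to 0.217 CPM depending on the library, a limit that covers counting error only.

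LIM1215-R1 and LIM1215-R2 came from separate, parallel selections of LIM1215 under rising doses of cetuximab, an antibody that blocks the EGF receptor (EGFR), and LIM1215-parental cells were kept over the same period without the antibody. Neither resistant line is a clone, and the study detected activating HRAS mutations in a subpopulation of each. RNA came from cultures of the 3 lines without treatment, with 3 libraries per line, and strand-specific poly(A) sequencing gave 13737416 to 18725014 counts per library. The study's supplement calls the 3 replicates technical, so the p-values below measure the spread between these libraries, and a difference of culture or harvest cannot be told apart from a difference between lines. Both comparisons with the parental line share the same 3 parental libraries.

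The label of the cells was compared with marker genes. Of 10 markers of colorectal epithelium, 9 were at 1 CPM or more in each line, with KRT20 at 0 counts, and their summed level was 12448 to 12837 CPM in parental, 15836 to 16142 CPM in LIM1215-R1 and 14455 to 14869 CPM in LIM1215-R2 libraries. Of 10 fibroblast markers, 7 had under 10 counts over the 9 libraries, and COL1A2, PDGFRA and THY1 had 0. Their summed level was 3.97 to 4.43 CPM in parental, 3.44 to 3.93 CPM in LIM1215-R1 and 2.48 to 3.34 CPM in LIM1215-R2 libraries. Endothelial markers summed to 0.722 CPM at most. Leukocyte markers summed to 7.32 to 10.5 CPM in parental, 11.9 to 14.7 CPM in LIM1215-R1 and 8.56 to 10.5 CPM in LIM1215-R2 libraries, most of it from CD68, which epithelial cells also express.

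Metalloproteinases cut proteins outside the cell with the help of a zinc ion. Matrix metalloproteinases (MMPs) digest collagens, laminins and other matrix proteins, ADAMs mostly release the outer parts of membrane proteins, including EGFR ligands, and ADAMTS proteases are secreted and act on proteoglycans and procollagens. TIMPs are small secreted proteins that block the active site of these enzymes, and in the intestine the balance of proteases and inhibitors bears on matrix turnover, shedding of growth factors and tumour invasion.

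Promoter sequences are shown for TIMP1 and TIMP3, inhibitors whose transcripts were higher in the resistant lines, and for MMP15, a protease whose transcript differed little between the lines. They run from 250 bases before to 50 bases after the annotated start, come from RefSeq (GRCh38.p14) and are given 5′ to 3′ on the strand of the gene. Capitals mark GC boxes, the letters GGGCGG on either strand, which Sp1-type factors can bind. TIMP1 is shown from chrX:47582186-47582485 (+), TIMP3 from chr22:32801455-32801754 (+) and MMP15 from chr16:58025504-58025803 (+).
TIMP1: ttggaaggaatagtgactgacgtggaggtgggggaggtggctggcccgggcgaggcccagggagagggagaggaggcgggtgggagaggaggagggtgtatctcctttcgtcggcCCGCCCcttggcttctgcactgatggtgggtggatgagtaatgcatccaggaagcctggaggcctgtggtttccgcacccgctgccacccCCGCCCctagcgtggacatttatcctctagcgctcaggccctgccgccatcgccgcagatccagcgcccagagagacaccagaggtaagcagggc
TIMP3: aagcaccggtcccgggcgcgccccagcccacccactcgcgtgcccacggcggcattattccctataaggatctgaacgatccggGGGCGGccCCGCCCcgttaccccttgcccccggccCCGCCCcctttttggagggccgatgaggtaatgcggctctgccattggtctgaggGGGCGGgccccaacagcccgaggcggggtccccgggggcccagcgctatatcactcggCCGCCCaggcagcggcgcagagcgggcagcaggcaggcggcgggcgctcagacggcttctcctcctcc
MMP15: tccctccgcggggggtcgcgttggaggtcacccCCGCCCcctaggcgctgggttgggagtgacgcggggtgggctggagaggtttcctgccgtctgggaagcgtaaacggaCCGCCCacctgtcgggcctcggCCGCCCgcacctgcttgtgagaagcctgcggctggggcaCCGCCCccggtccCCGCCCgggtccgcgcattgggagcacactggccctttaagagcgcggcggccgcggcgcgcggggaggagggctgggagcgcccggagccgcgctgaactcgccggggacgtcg

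The TIMP1 window holds 2 GC boxes and 16 CpG dinucleotides, and 52.5% of the 35116 RefSeq promoters of the same length hold fewer CpG. In the TIMP3 window there are 5 GC boxes and 31 CpG (79.3% of promoters hold fewer), and the MMP15 window has 5 GC boxes and 39 CpG (91.3%). A GC box occurs in 45% of all promoters. The AP-1 motif TGANTCA, present in 7.71% of promoters, and the TATA motif TATAAA, present in 11.5%, were searched on both strands. These exact letters have no match in the 3 windows. Variant sites that depart from them, such as tgagtaa in the TIMP1 window, were not searched, so an AP-1 or TATA element is not excluded. These letters describe the windows, and no binding was measured. The RefSeq table held a promoter for 6 of the 10 genes, and not for TIMP2, ADAMTS9, ADAM9 and ADAMTS1.

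TIMP1 transcripts were several-fold higher in both resistant lines. TIMP1, a broad inhibitor of secreted MMPs, lies on chromosome X from 47582436 to 47586789 (GRCh38.p14) inside SYN1, which is on the other strand. It was at 3.84, 4.55 and 3.78 CPM in parental replicates 1, 2 and 3, at 22.5, 25.4 and 27.4 CPM in LIM1215-R1 and at 18.3, 17.6 and 21.1 CPM in LIM1215-R2. Every resistant library lay above every parental library, and the lowest LIM1215-R1 library lay above the highest LIM1215-R2 library. Against parental cells the increase was 6.22-fold in LIM1215-R1 (log2 fold change 2.64, SE 0.120, adjusted p = 4.56e-16 in the edgeR quasi-likelihood test, Benjamini-Hochberg adjusted) and 4.71-fold in LIM1215-R2 (2.24, SE 0.124, adjusted p = 3.26e-14). Both passed the DEG rule of the study, adjusted p up to 0.01 together with a log2 fold change of 1.5 or more in either direction. The study applied these limits to DESeq2 results with shrunken fold changes. Here they are applied to edgeR results without that shrinkage, so DEGs at low counts may differ from the study's. In bulk RNA, a change in the share of cells that make a transcript and a change in its amount per cell cannot be told apart.

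The level of TIMP1 in LIM1215-R2 was lower than in LIM1215-R1, at -0.40 on the log2 scale (SE 0.0948, adjusted p = 0.00453, same test). This call was lost when LIM1215-R1 replicate 2 (adjusted p = 0.0128) or 3 (adjusted p = 0.0552) or LIM1215-R2 replicate 1 (adjusted p = 0.0382) or 2 (adjusted p = 0.0484) was left out, and after trends on GC content and transcript length were taken out, an alternative chosen after the data had been seen (adjusted p = 0.0117). SYN1 had 0 counts in all 9 libraries. The fibroblast markers given above summed to 2.48 to 3.93 CPM in the resistant libraries and 3.97 to 4.43 CPM in the parental ones.

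TIMP2, which blocks MMPs and also forms a complex with MMP14 that activates MMP2, had few transcripts in parental cells and more in both resistant lines. It lies on chromosome 17 from 78852977 to 78925387 and was at 2.66, 4.05 and 2.42 CPM in parental, 19.5, 16.7 and 17.0 CPM in LIM1215-R1 and 21.3, 23.1 and 22.7 CPM in LIM1215-R2 replicates 1, 2 and 3. The 3 lines did not overlap, with LIM1215-R2 highest. The log2 fold change against parental cells was 2.58 (SE 0.139) in LIM1215-R1 and 2.91 (SE 0.135) in LIM1215-R2, which is 5.98-fold and 7.53-fold, and between the resistant lines it was 0.33 (SE 0.102). On the same strand TIMP2 shares 12639 bases with CEP295NL, which had 2 counts over the 9 libraries.

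TIMP3, the inhibitor that stays bound to the matrix and also blocks ADAM17 and several ADAMTS proteases, was at 23.7, 26.5 and 24.3 CPM in parental replicates 1, 2 and 3. In LIM1215-R1 it was at 84.3, 90.9 and 83.4 CPM, and in LIM1215-R2 at 41.5, 39.1 and 42.7 CPM. LIM1215-R2 thus stood between the other lines, with no overlap on either side. The log2 fold change was 1.80 (SE 0.0672) in LIM1215-R1 and 0.73 (SE 0.0708) in LIM1215-R2 against parental cells, and -1.07 (SE 0.0635) in LIM1215-R2 against LIM1215-R1, which is 3.48-fold and 1.66-fold higher and 2.10-fold lower. TIMP3 lies on chromosome 22 from 32801705 to 32863041, inside SYN3 on the other strand. SYN3 was at 2.24 to 2.63 CPM in parental, 3.19 to 3.57 CPM in LIM1215-R1 and 2.61 to 3.65 CPM in LIM1215-R2 libraries.

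TIMP4, the remaining inhibitor of the family, was at 5.78, 5.63 and 4.57 CPM in parental, 5.03, 5.65 and 7.07 CPM in LIM1215-R1 and 4.94, 4.58 and 4.96 CPM in LIM1215-R2 libraries. These ranges overlapped between each resistant line and the parental line, and no difference passed the test (log2 fold change 0.16, adjusted p = 0.477 in LIM1215-R1 and -0.13, adjusted p = 0.584 in LIM1215-R2, edgeR quasi-likelihood test, Benjamini-Hochberg adjusted).

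**Figure D1:**
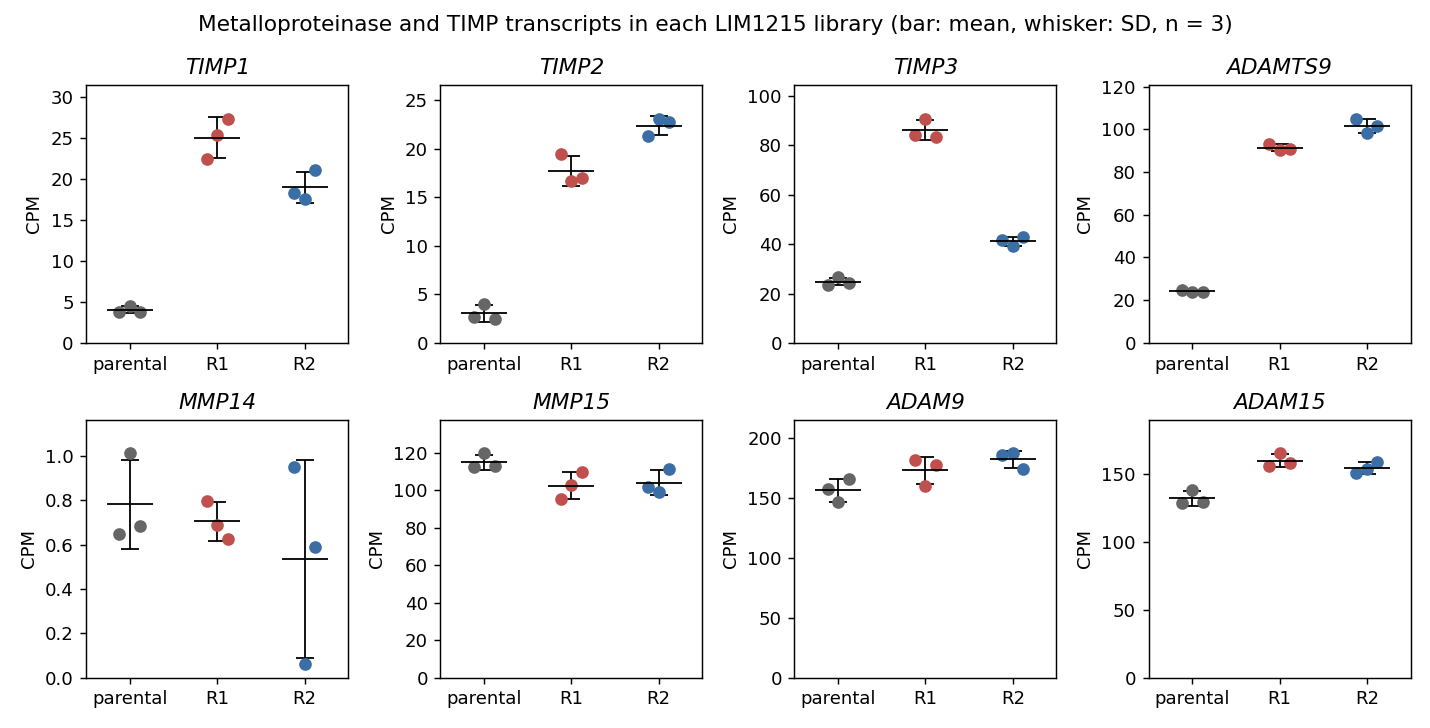
CPM of the 8 genes that passed the count minimum, by line (parental, LIM1215-R1, LIM1215-R2), each panel on its own linear axis from 0. Points are libraries, bars are means and whiskers are SD of 3 libraries. Parental and resistant libraries do not overlap for TIMP1, TIMP2, TIMP3, ADAMTS9 and ADAM15, which are higher in the resistant lines. They do not overlap for MMP15 either, which is slightly lower. TIMP2, TIMP3 and ADAMTS9 were picked by their change, and the share of all genes without overlap was not computed.

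To compare the inhibitors with each other, CPM were divided by the length of each gene's merged exons in kilobases (GENCODE release 44). TIMP3 led in parental cells at 5.40 ± 0.327 CPM per kb (SD, n = 3), followed by TIMP4 at 4.46 ± 0.554, TIMP1 at 2.81 ± 0.297 and TIMP2 at 0.489 ± 0.142 CPM per kb. In LIM1215-R1, TIMP3 at 18.7 ± 0.888 and TIMP1 at 17.3 ± 1.72 CPM per kb lay within their spread of each other. In LIM1215-R2, TIMP1 was first at 13.1 ± 1.28 CPM per kb, above TIMP3 at 8.94 ± 0.403 CPM per kb. With the longest transcript as length, TIMP1 in LIM1215-R1 was at 22.9 CPM per kb, above TIMP3 at 18.7 CPM per kb, so the order of these genes in that line depends on the length used.

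Summed over the 4 inhibitors, the level per length was 13.2 ± 1.09 CPM per kb in parental cells, 43.9 ± 2.38 in LIM1215-R1 and 29.7 ± 1.79 in LIM1215-R2 (SD, n = 3). The sum contains genes picked by their change and was not tested. TIMP1 made up 21.3% ± 0.905 of it in parental cells, 39.4% ± 1.88 in LIM1215-R1 and 44.1% ± 1.64 in LIM1215-R2. TIMP4 made up 33.9% ± 2.83, 11.2% ± 1.48 and 13.6% ± 0.507 in the same order, and TIMP2 made up 3.68% ± 0.762, 6.54% ± 0.936 and 12.1% ± 0.898. TIMP3 was at 41.1% ± 2.20, 42.8% ± 2.71 and 30.1% ± 0.774, so that TIMP3 and TIMP4 held most of the sum in parental cells and TIMP1 and TIMP3 in both resistant lines.

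**Figure D2:**
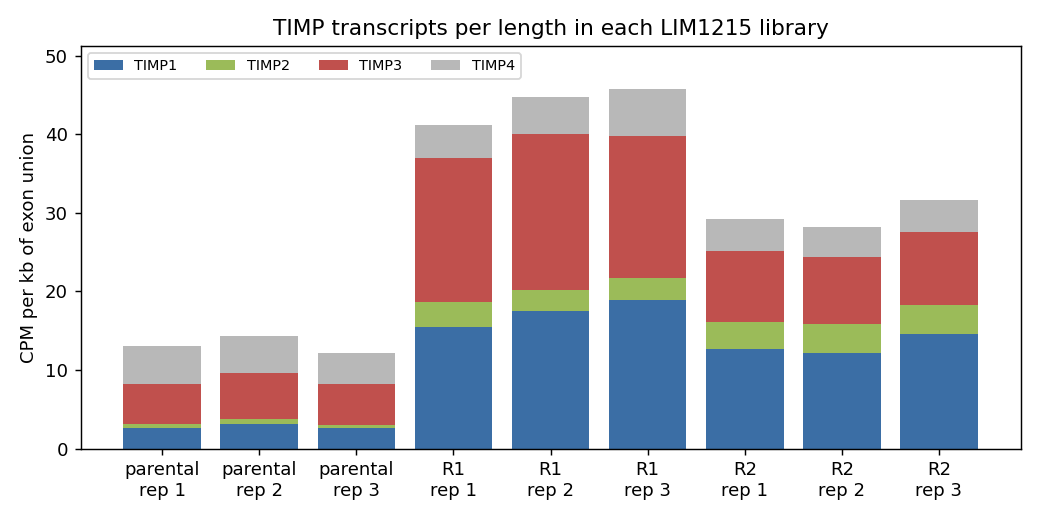
Stacked levels of TIMP1, TIMP2, TIMP3 and TIMP4 in each of the 9 libraries, in CPM per kb of merged exons. The stacks reach 12.1 to 14.3 CPM per kb in parental, 41.2 to 45.8 in LIM1215-R1 and 28.2 to 31.7 in LIM1215-R2 libraries.

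MMP7, or matrilysin, a small secreted MMP of intestinal tumours, was not detectable beyond the 1 count named above. MMP14, the membrane MMP that activates MMP2, lies on chromosome 14 from 22836585 to 22847758 and had 11, 14 and 13 counts in parental, 13, 11 and 10 counts in LIM1215-R1 and 16, 1 and 9 counts in LIM1215-R2 replicates 1, 2 and 3. The ranges overlapped, and LIM1215-R2 replicate 2 was the lowest. The log2 fold change was -0.12 (SE 0.462, adjusted p = 0.88) in LIM1215-R1 and -0.51 (SE 0.485, adjusted p = 0.482) in LIM1215-R2 in the edgeR quasi-likelihood test, Benjamini-Hochberg adjusted, and with so few counts a difference of this size was not detectable. The gelatinases MMP2 and MMP9, which degrade denatured collagen and basement membrane, had 4 counts and 1 count over the 9 libraries.

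MMP15, a membrane MMP of epithelial cells, differed little between the lines, with values between 95.0 and 119.6 CPM. It lies on chromosome 16 from 58025754 to 58046901 and was at 112, 119.6 and 113 CPM in parental, 95.0, 103 and 109 CPM in LIM1215-R1 and 102, 98.9 and 111 CPM in LIM1215-R2 replicates 1, 2 and 3. Each resistant library lay below the lowest parental library, by small amounts. The log2 fold change of -0.17 (SE 0.0585) in LIM1215-R1 did not pass the test (adjusted p = 0.0273, edgeR quasi-likelihood test, Benjamini-Hochberg adjusted), nor did that of -0.14 (SE 0.0585) in LIM1215-R2 (adjusted p = 0.0617). It passed in LIM1215-R1 with scaling by total counts (-0.20, adjusted p = 0.0077), and in both lines after removal of GC content and length trends (-0.31, adjusted p = 1.21e-07 in LIM1215-R1 and -0.22, adjusted p = 5.48e-05 in LIM1215-R2).

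ADAMTS9 is a secreted protease that cuts the proteoglycans versican and aggrecan. It lies on chromosome 3 from 64515654 to 64688000 and was at 25.0, 23.9 and 23.7 CPM in parental, 93.2, 90.3 and 90.9 CPM in LIM1215-R1 and 105, 98.4 and 102 CPM in LIM1215-R2 replicates 1, 2 and 3. All 6 resistant libraries stood well above the parental ones, and the replicates of each line lay close together. The log2 fold change against parental cells was 1.92 (SE 0.0607) in LIM1215-R1 and 2.07 (SE 0.0604) in LIM1215-R2, which is 3.78-fold and 4.20-fold. It was 0.15 (SE 0.0531) between the resistant lines. ADAMTS9-AS1 and ADAMTS9-AS2, which overlap the gene on the other strand, had 3 counts and 0 counts over the 9 libraries. ADAMTS1, a related protease that cuts the same proteoglycans, had no counts.

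ADAM15, a membrane protease with an integrin-binding disintegrin domain, was modestly higher in both resistant lines. It lies on chromosome 1 from 155051316 to 155062775 and was at 129, 139 and 129.9 CPM in parental, 156, 166 and 159 CPM in LIM1215-R1 and 151, 154 and 159 CPM in LIM1215-R2 replicates 1, 2 and 3. Every resistant library lay above every parental library. The increase was 1.21-fold in LIM1215-R1 (log2 fold change 0.27, SE 0.0492, adjusted p = 5.68e-05, edgeR quasi-likelihood test, Benjamini-Hochberg adjusted) and 1.17-fold in LIM1215-R2 (0.23, SE 0.0493, adjusted p = 0.000652). The resistant lines overlapped (log2 fold change -0.05, adjusted p = 0.595). ADAM15 shares 365 bases with DCST1 on the same strand.

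ADAM9, a membrane protease that sheds several surface proteins, was at 157, 147 and 166 CPM in parental, 181, 160.3 and 177 CPM in LIM1215-R1 and 186, 187 and 174 CPM in LIM1215-R2 replicates 1, 2 and 3. The LIM1215-R1 libraries overlapped with the parental ones, and the LIM1215-R2 libraries lay above them. Its log2 fold change was 0.22 (SE 0.0544, adjusted p = 0.00236, edgeR quasi-likelihood test, Benjamini-Hochberg adjusted) in LIM1215-R2 and 0.14 (SE 0.0545, adjusted p = 0.0415) in LIM1215-R1. The call in LIM1215-R2 was lost without parental replicate 2 (adjusted p = 0.0131), LIM1215-R2 replicate 1 (adjusted p = 0.0169) or LIM1215-R2 replicate 2 (adjusted p = 0.0222). LIM1215-R1 passed without its replicate 2 (adjusted p = 0.00489) and after removal of GC content and length trends (log2 fold change 0.29, adjusted p = 1.14e-08).

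**Figure D3:**
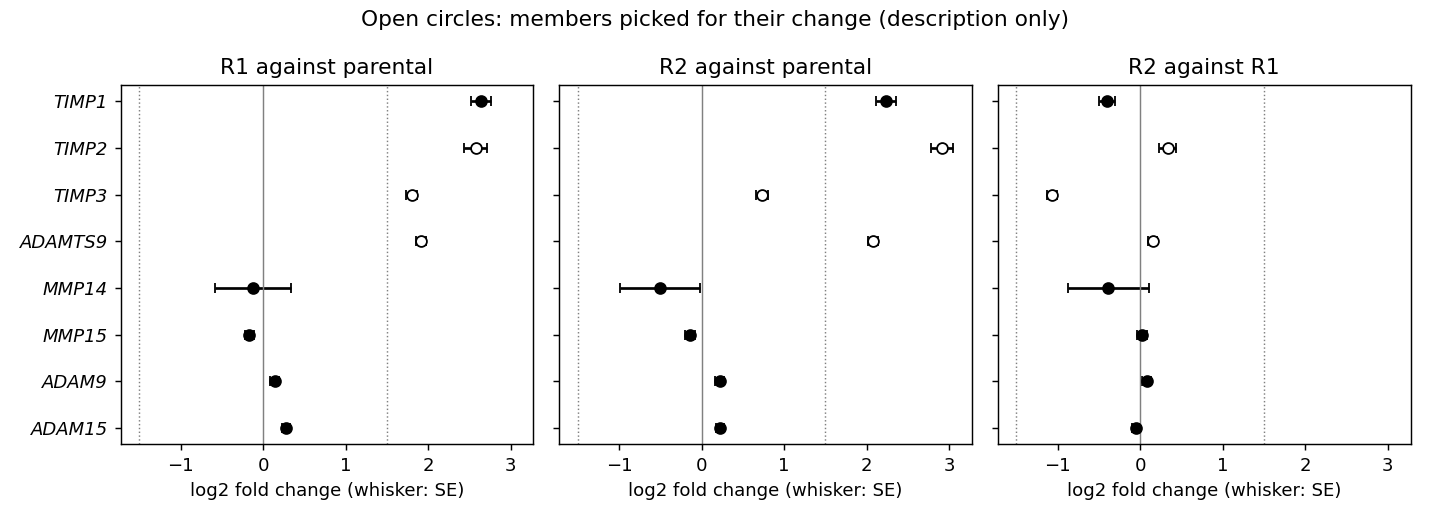
Log2 fold changes of the 8 genes for each resistant line relative to parental cells and for LIM1215-R2 relative to LIM1215-R1, with SE as whiskers and dotted lines at the DEG limit of 1.5 in either direction. Open circles are TIMP2, TIMP3 and ADAMTS9, picked by their change, and the proteases MMP14, MMP15, ADAM9 and ADAM15 lie between -0.51 and 0.27 in all 3 panels.

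Per length of merged exons, MMP15 and ADAM15 had the highest levels of the 10 genes in each line. MMP15 was at 27.2 ± 0.957, 24.2 ± 1.71 and 24.6 ± 1.57 CPM per kb in parental, LIM1215-R1 and LIM1215-R2 cells (SD, n = 3), and ADAM15 at 20.1 ± 0.839, 24.3 ± 0.746 and 23.5 ± 0.654. In both resistant lines MMP15 and ADAM15 lay within their spread of each other. ADAM9 was at 8.84 ± 0.536, 9.77 ± 0.630 and 10.3 ± 0.410 CPM per kb, and ADAMTS9 at 2.26 ± 0.0636, 8.56 ± 0.147 and 9.52 ± 0.312. MMP14 lay lowest of the 8 genes at 0.169 ± 0.0433, 0.152 ± 0.0188 and 0.115 ± 0.0967 CPM per kb. With the longest transcript as length, ADAM9 was at 22.1, 24.4 and 25.7 CPM per kb, MMP15 at 28.3, 25.2 and 25.6 and ADAM15 at 29.4, 35.5 and 34.3, so that ADAM9 stood slightly above MMP15 in LIM1215-R2.

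Profiles over the 9 libraries, as log2 CPM centred for each gene, were compared with those of 12562 genes with a mean of at least 1 CPM, and likeness was measured by the root mean square difference in log2 units. Closest to TIMP3 were EGFL7, a secreted factor of vessel growth (0.0827), the cell cycle inhibitor CDKN1A (0.116) and the actin-binding COTL1 (0.118). Closest to ADAMTS9 were CPE, a carboxypeptidase of prohormone processing (0.0630), the G protein subunit GNG7 (0.0816) and the phosphatase UBASH3B (0.0882). TIMP2 had less close neighbours, with FHL3 (0.180), the actin-binding CALD1 (0.194) and the lipid-binding OSBPL5 (0.199). With the 3 line means in place of the 9 libraries, EGFL7 and GNG7 stayed among the 3 closest and the other 7 did not.

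The families were then read as a whole with the same fit. Among the 5 tested genes of the set that had not been picked by their change, TIMP1 and ADAM15 were called in LIM1215-R1, where 27.3% of all genes were called at an adjusted p up to 0.01, and TIMP1, ADAM9 and ADAM15 in LIM1215-R2, where 23.8% were. Of the 64 unpicked TIMP, MMP, ADAM and ADAMTS genes, 25 had enough counts for a test and 39 did not. In LIM1215-R1, 13 of the 25 were called, 5 higher and 8 lower, which is 52% beside 27.3% of all genes tested. Of these, 7 were DEGs, 4 higher and 3 lower, where 5.14% of all genes were. The median log2 fold change was -0.30 over the 25 genes and -0.01 over all genes. In LIM1215-R2, 11 were called, 7 higher and 4 lower, or 44% beside 23.8% of all genes, and 5 were DEGs beside 4.82% of all genes, with a median of -0.13. TIMP2, TIMP3 and ADAMTS9, which are left out, were all higher in both resistant lines. Leaving them out shifts these splits and medians downward, so no lean of the families to lower levels is read from them. Between LIM1215-R2 and LIM1215-R1, 3 were called, or 12% beside 7.16% of all genes. None was a DEG in edgeR's quasi-likelihood test, where 0.764% of all genes were. In the same test 10 had an unadjusted p under 0.05. The share of all genes at that threshold was not computed, so nothing is read from this number. The lists were drawn up with earlier results of these libraries known, so the counts describe the families.

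ADAM10 and ADAM17, the main sheddases of EGFR ligands and Notch at the cell surface, were lower in both resistant lines. ADAM10 was at 383, 358 and 380.2 CPM in parental, 318, 283 and 308 CPM in LIM1215-R1 and 345, 331 and 323 CPM in LIM1215-R2 libraries, with no overlap of parental and resistant libraries. Its log2 fold change was -0.30 (SE 0.0466, adjusted p = 6.91e-06, edgeR quasi-likelihood test, Benjamini-Hochberg adjusted) in LIM1215-R1 and -0.17 (SE 0.0465, adjusted p = 0.00572) in LIM1215-R2. The latter call was lost without parental replicate 1 or 3, LIM1215-R1 replicate 3, or LIM1215-R2 replicate 2 or 3, with adjusted p from 0.0109 to 0.0359.

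ADAM17 fell from 39.7, 34.1 and 38.2 CPM in parental libraries to 31.7, 28.2 and 29.6 CPM in LIM1215-R1 and 27.8, 29.3 and 29.98 CPM in LIM1215-R2. Each resistant library was below each parental library. The log2 fold changes were -0.33 (SE 0.0754, adjusted p = 0.000954, edgeR quasi-likelihood test, Benjamini-Hochberg adjusted) and -0.37 (SE 0.0756, adjusted p = 0.00032). In LIM1215-R1 the call was lost without parental replicate 1 (adjusted p = 0.0105) and after removal of GC content and length trends (log2 fold change -0.20, adjusted p = 0.0128).

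Among the MMPs, 7 of 23 were tested, and in each resistant line MMP24 was called higher and MMP17 lower, a share of 28.6% beside 27.3% of all genes in LIM1215-R1 and 23.8% in LIM1215-R2. MMP24, a membrane MMP best known from neurons, was at 1.53, 2.02 and 1.84 CPM in parental, 7.97, 8.54 and 7.32 CPM in LIM1215-R1 and 5.83, 4.58 and 6.21 CPM in LIM1215-R2 libraries (log2 fold changes 2.15 and 1.63, adjusted p = 8.62e-11 and 4.67e-08, edgeR quasi-likelihood test, Benjamini-Hochberg adjusted). It lies inside MMP24OS on the other strand. MMP17, a membrane MMP held by a lipid anchor, had 20, 23 and 31 counts in parental, 0, 1 and 0 counts in LIM1215-R1 and 3, 5 and 2 counts in LIM1215-R2 libraries. Its ratio of parental to LIM1215-R1 was 71.6 (95% exact counting interval 12.5 to 2866), with adjusted p = 1.16e-07, and its log2 fold change in LIM1215-R2 was -2.80 (SE 0.455, adjusted p = 1.61e-05). Without LIM1215-R1 replicate 2, that line had 0 counts (adjusted p = 3.35e-07).

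Of 21 ADAM genes, 11 were tested. In LIM1215-R1, 2 were called higher, ADAM15 and ADAM19, and 4 lower, ADAM8, ADAM10, ADAM17 and ADAM22. In LIM1215-R2, ADAM9, ADAM15 and ADAM19 were higher and ADAM10, ADAM17 and ADAM22 lower. These calls make up 54.5% of the tested ADAM genes in either line, beside 27.3% of all genes in LIM1215-R1 and 23.8% in LIM1215-R2. ADAM19, known for shedding neuregulins, had 2, 1 and 2 counts in parental, 37, 31 and 38 in LIM1215-R1 and 52, 61 and 63 in LIM1215-R2 libraries, with log2 fold changes of 4.35 (SE 0.401, adjusted p = 1.06e-09, edgeR quasi-likelihood test, Benjamini-Hochberg adjusted) and 5.08 (SE 0.364, adjusted p = 6.62e-12). ADAM22, which has no protease activity and acts as a receptor for LGI proteins, fell from 16.6 to 20.7 CPM in parental libraries to 6.01 to 7.24 CPM in LIM1215-R1 (log2 fold change -1.54, SE 0.123, adjusted p = 7.09e-11) and 7.71 to 10.5 CPM in LIM1215-R2 (-1.02, SE 0.117, adjusted p = 5.34e-08). ADAM8, named here after its values were seen because it completes a small count, was at -1.43 (log2 fold change) in LIM1215-R1. In LIM1215-R2 ADAM8 was at -0.95 and was not called (adjusted p = 0.0165, same test). It passed there without parental replicate 1 (adjusted p = 0.00595) and after removal of GC content and length trends (adjusted p = 0.00852). The resistant lines were not called different for ADAM8 (adjusted p = 0.467).

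Of 18 unpicked ADAMTS genes 5 were tested, with 1 called higher and 3 lower in LIM1215-R1 and 2 higher and none lower in LIM1215-R2 (80% and 40%, beside 27.3% and 23.8% of all genes). ADAMTS9, left out here, was higher in both lines. ADAMTS15, a protease of proteoglycans, was at 19.2, 18.2 and 17.0 CPM in parental, 5.52, 5.71 and 6.26 CPM in LIM1215-R1 and 16.9, 15.8 and 15.9 CPM in LIM1215-R2 libraries. It was lower in LIM1215-R1 than in parental cells (log2 fold change -1.64, SE 0.107, adjusted p = 1.11e-12, edgeR quasi-likelihood test, Benjamini-Hochberg adjusted), did not pass in LIM1215-R2 (-0.16, SE 0.0922, adjusted p = 0.197), and differed between the resistant lines (1.47, SE 0.109, adjusted p = 1.48e-10). ADAMTS14, which cuts the aminopropeptide off procollagen, had 2, 2 and 8 counts in parental, 29, 43 and 40 in LIM1215-R1 and 14, 26 and 27 in LIM1215-R2 libraries (log2 fold changes 3.24 and 2.50, adjusted p = 3.28e-07 and 5.94e-05). Without parental replicate 3 its log2 fold changes were 4.08 and 3.34. ADAMTS17 and ADAMTS13, named after their values were seen, were the other calls. ADAMTS17 had log2 fold changes of -0.41 (adjusted p = 0.00187) in LIM1215-R1 and 0.39 (adjusted p = 0.00158) in LIM1215-R2, and 0.79 (adjusted p = 1.27e-06) between them, and ADAMTS13, the protease of von Willebrand factor, had -0.78 (adjusted p = 0.00804) in LIM1215-R1. In LIM1215-R2 ADAMTS13 was at -0.55 and was not called (adjusted p = 0.0607, same test), nor was it between the resistant lines (adjusted p = 0.623). The call of ADAMTS13 was lost in 5 fits that left out a library (parental replicate 1 or 2, LIM1215-R1 replicate 2 or 3, LIM1215-R2 replicate 2, adjusted p up to 0.0547). That of ADAMTS17 was lost without LIM1215-R1 replicate 1 in LIM1215-R1 (adjusted p = 0.0125), and without parental replicate 3 (adjusted p = 0.0114) or LIM1215-R2 replicate 2 (adjusted p = 0.0182) in LIM1215-R2.

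**Figure D4:**
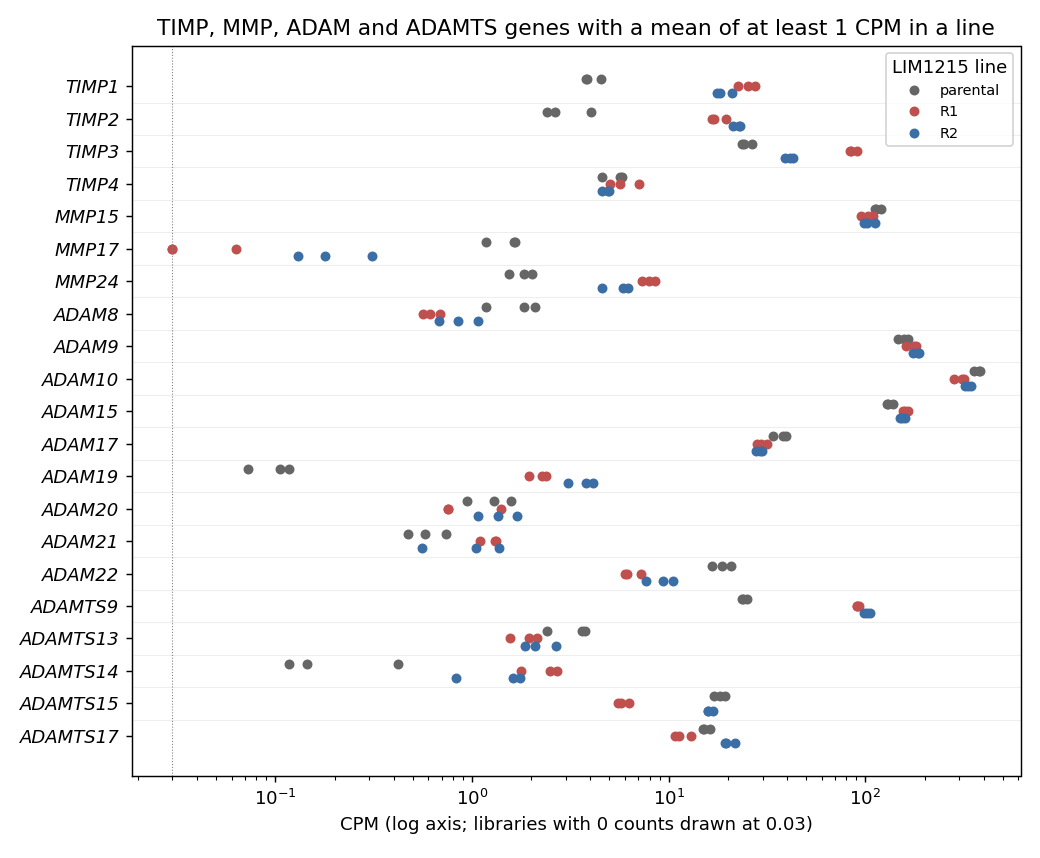
CPM on a log axis of the TIMP, MMP, ADAM and ADAMTS genes with a mean of at least 1 CPM in a line, with a point for each library and libraries with 0 counts drawn at 0.03. ADAMTS15 is low in the 3 LIM1215-R1 libraries (5.52 to 6.26 CPM), while ADAM19 and MMP24 are higher in all 6 resistant libraries than in the parental ones.

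Relatives of the ADAMTS and MMP enzymes were read next. THSD4, an ADAMTS-like protein without a protease domain that takes part in microfibril assembly, was at 3.72, 3.54 and 3.31 CPM in parental, 34.4, 33.0 and 33.1 CPM in LIM1215-R1 and 31.5, 34.3 and 32.9 CPM in LIM1215-R2 libraries. Its log2 fold changes of 3.25 (SE 0.101, adjusted p = 1.43e-19, edgeR quasi-likelihood test, Benjamini-Hochberg adjusted) and 3.22 (SE 0.102, adjusted p = 1.52e-19) passed the test, while the other 4 of the 5 ADAMTS-like genes tested were not called in either line. Of 6 astacin proteases, 3 were tested, and 66.7% were called in LIM1215-R1 and 33.3% in LIM1215-R2, beside the same shares of all genes. With so few genes nothing is read from these shares. MEP1A, the alpha subunit of the intestinal protease meprin A, named after its values were seen, had 13, 13 and 17 counts in parental, 0, 2 and 1 in LIM1215-R1 and 0, 2 and 3 in LIM1215-R2 libraries, and was called lower in both. BMP1, the procollagen C-proteinase, also named after its values were seen, was called higher in LIM1215-R1 (log2 fold change 0.28, adjusted p = 0.00597), a call lost without parental replicate 1 or LIM1215-R1 replicate 2 or 3 (adjusted p up to 0.0586).

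Of 19 regulators of the proteases 16 were tested, with 4 called higher and 2 lower in LIM1215-R1 (37.5%, beside 27.3% of all genes) and 2 higher and 3 lower in LIM1215-R2 (31.2%, beside 23.8%), shares not far from those of all genes. TSPAN33, a tetraspanin that escorts ADAM10 to the membrane, was at 3.89, 3.25 and 2.99 CPM in parental, 9.14, 14.5 and 13.3 CPM in LIM1215-R1 and 9.04, 7.74 and 8.49 CPM in LIM1215-R2 libraries (log2 fold changes 1.86 and 1.32, adjusted p = 3.84e-10 and 5.32e-07, edgeR quasi-likelihood test, Benjamini-Hochberg adjusted). TSPAN15, another escort of ADAM10, and PCSK5, a proprotein convertase, were lower in both lines, with log2 fold changes of -0.51 and -0.57 for TSPAN15 and -0.55 and -0.71 for PCSK5. PCOLCE, an enhancer of procollagen C-proteinase, was higher in both lines at low counts. It had 4, 3 and 1 counts in parental, 8, 12 and 14 in LIM1215-R1 and 15, 9 and 16 in LIM1215-R2 libraries. FURIN, the convertase that activates many metalloproteinases, and the iRhom partner FRMD8 were called higher in LIM1215-R1 (log2 fold changes 0.23 and 0.25). Neither was called in LIM1215-R2 (-0.01 and 0.14). Between the resistant lines neither passed the threshold in the edgeR quasi-likelihood test (adjusted p = 0.0137 for FURIN and 0.31 for FRMD8). FURIN passed there in some alternatives, among them DESeq2's Wald test (adjusted p = 0.00894) and the fit to 6 libraries (adjusted p = 0.00656). The LIM1215-R1 calls of FURIN and FRMD8 were lost without parental replicate 1 or 3 or LIM1215-R1 replicate 2 or 3 (adjusted p up to 0.0497 and 0.0225). That of FURIN was also lost without LIM1215-R2 replicate 1 or 2 and with the fit to 6 libraries (adjusted p = 0.0143). PCOLCE lost its call without parental replicate 3 in both lines (adjusted p = 0.0351 and 0.0145), and in LIM1215-R1 also without its replicate 2 or 3. These 5 were named after their values were seen. PCOLCE2 had 10, 19 and 16 counts in parental, 25, 24 and 19 in LIM1215-R1 and 0, 3 and 3 in LIM1215-R2 libraries, with log2 fold changes of 0.63 (adjusted p = 0.19) in LIM1215-R1 and -2.80 (SE 0.570, adjusted p = 0.000297) in LIM1215-R2. Without LIM1215-R2 replicate 1 the latter was -2.21. RECK, a membrane-bound inhibitor of MMPs, had 1 count over the 9 libraries.

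Known substrates were called higher in 6 of the 12 tested, of 16 listed, in each resistant line, and in neither line was one called lower. This is 50%, beside 27.3% (LIM1215-R1) and 23.8% (LIM1215-R2) of all genes. The EGFR ligands AREG and EREG, which ADAM17 sheds, passed the DEG rule. AREG was at 20.0, 19.2 and 20.4 CPM in parental, 85.0, 76.8 and 82.6 CPM in LIM1215-R1 and 63.7, 63.6 and 63.2 CPM in LIM1215-R2 libraries, with log2 fold changes of 2.03 (SE 0.0657, adjusted p = 2.65e-19, edgeR quasi-likelihood test, Benjamini-Hochberg adjusted) and 1.67 (SE 0.0667, adjusted p = 2.42e-17). EREG was at 38.4, 31.6 and 33.4 CPM in parental, 303, 267 and 291 CPM in LIM1215-R1 and 143, 145 and 130.4 CPM in LIM1215-R2 libraries, with log2 fold changes of 3.06 (SE 0.0668, adjusted p = 1.04e-22) and 2.01 (SE 0.0672, adjusted p = 4.92e-19). Smaller increases were called in both lines, among others, for SDC4, a heparan sulphate proteoglycan (log2 fold changes 1.43 and 0.92), and the EGFR ligands TGFA (0.39 and 0.46) and BTC (0.93 and 0.68), named after their values were seen. Of AREG and EREG, neither had parental and resistant libraries that overlapped, and LIM1215-R1 was the higher of the resistant lines for both.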

How the data were processed

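RNA-seq of the parental, R1 and R2 lines of LIM1215 (3 libraries each, grouped by the line in their labels) was analysed. The authors aligned stranded paired-end poly(A) reads to hg38 with STAR and counted reads on the reverse strand with htseq-count 0.9.1. The deposited values are raw counts per gene symbol, with no normalization, and the gene annotation is not given in the sources used here. Between replicates, counts differed by more than sampling of reads would give (chi-square 1.82 to 6.04 times the degrees of freedom), so each library was kept.

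The edgeR 4.0.16 package was used in R 4.3.3. Genes whose counts summed to 10 or more were kept, scaled with TMM (factors 0.984 to 1.02), fitted with the 3 lines as groups in 1 quasi-likelihood model and tested with Benjamini-Hochberg adjustment over all 19102 genes. CPM use the TMM factors. The test was first run on simulated counts with the same spread for every gene and large planted changes. That run does not cover small changes or genes with few counts. SE was derived from the test statistic. Ratios against 1 to 3 counts have exact 95% intervals, which cover counting error only. Positions came from RefSeq (57540 of 58920 names matched) and lengths from GENCODE release 44.

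The genes and lists were chosen with earlier results of these data known. Genes named were the 10 members, ADAM10, ADAM17, MMP2, MMP9, RECK and TIMP4, DEGs of the lists with at least 1 CPM in the higher line, overlapping genes, and the 3 nearest profiles of TIMP2, TIMP3 and ADAMTS9. A further 13 called genes of the lists were named after their values were seen, and a called gene is counted but not reported here. Alternatives were other filters on low counts, DESeq2 1.42.0 size factors and its Wald test, total counts, fits to 6 libraries, a replicate block, each library left out, another fold threshold, another transcript length and, added later, removal of trends on GC content and length.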

Additional observations from a re-analysis of the deposited data

Results flagged for a closer look

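Of the 35 genes run through the alternatives, 8 differed between the resistant lines in a direct test, LIM1215-R2 against LIM1215-R1 (edgeR quasi-likelihood test, Benjamini-Hochberg adjusted). TIMP2, TIMP3 and ADAMTS9 were left out of this count. Among all genes tested, 7.16% were called. Many of the 35 were named because they were called in these same libraries, so the count depends on that choice and gives no share to compare. ADAMTS15 had a log2 fold change of 1.47 (adjusted p = 1.48e-10), higher in all 3 LIM1215-R2 libraries than in any LIM1215-R1 library. ADAMTS17 was also higher in LIM1215-R2, at 0.79 (adjusted p = 1.27e-06), and the proteoglycan SDC4 was lower, at -0.51 (adjusted p = 4.84e-08). The inhibitor TIMP1 was lower in LIM1215-R2 at -0.40 (adjusted p = 0.00453). This TIMP1 call was lost without LIM1215-R1 replicate 2 or 3 or LIM1215-R2 replicate 1 or 2, and after removal of GC content and length trends (adjusted p from 0.0117 to 0.0552). The EGFR ligands EREG and AREG were lower in LIM1215-R2 at -1.04 (adjusted p = 6.04e-13) and -0.36 (adjusted p = 7.24e-05). PCOLCE2, with 6 counts in the LIM1215-R2 libraries and 68 in those of LIM1215-R1, was lower at -3.42 (adjusted p = 3.97e-05), and at -2.84 without LIM1215-R2 replicate 1. TSPAN33 was lower at -0.55 (adjusted p = 0.00931), and lost this call when LIM1215-R1 replicate 2 (adjusted p = 0.0776) or 3 (adjusted p = 0.0686) was left out, likewise LIM1215-R2 replicate 1 (adjusted p = 0.0271), 2 (adjusted p = 0.0722) or 3 (adjusted p = 0.0258), or parental replicate 3 (adjusted p = 0.0101), with DESeq2's Wald test (adjusted p = 0.015), with a minimum of 10 counts per library (adjusted p = 0.0142) and with total counts (adjusted p = 0.0112).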

How the results depend on the processing

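Under the alternatives run, none of the called values of the 35 genes run changed sign. With a minimum of 10 counts in every library, which drops genes that are rare in a line, DEGs of the families numbered 4 in place of 7 in LIM1215-R1 and 2 in place of 5 in LIM1215-R2. Between the resistant lines, 5 family genes in place of 3 were called with a replicate block, and 2 to 5 with each library left out (5 without parental replicate 2). There 1 family gene was a DEG in place of 0 after removal of GC content and length trends, and 1 at a log2 threshold of 1, and leaving out a library gave 0 to 1 (1 without LIM1215-R1 replicate 3). The share of all genes called under each of these alternatives was not computed. A shift of the family counts can therefore not be told apart from a shift of all genes. The cause was not tested. Same-numbered libraries of different lines correlated by -0.106 to 0.274 in their deviations from the line means, and not every library matched its own number best, so the numbers were not read as pairs. With the block, MMP15 was called lower in LIM1215-R1 (adjusted p = 0.0069, edgeR quasi-likelihood test, Benjamini-Hochberg adjusted), MMP24 lower in LIM1215-R2 than in LIM1215-R1 (adjusted p = 0.00718) and ADAM22 higher (adjusted p = 0.00301) and FURIN lower (adjusted p = 0.000997), and for the other genes run no call changed. In LIM1215-R1, BMP1 lost its call with total counts (adjusted p = 0.015) and after removal of GC content and length trends (adjusted p = 0.0157), FURIN with total counts (adjusted p = 0.0164), and ADAMTS13 (adjusted p = 0.0271) and PCOLCE (adjusted p = 0.0116) with DESeq2's Wald test. With the edgeR fit to 6 libraries, FURIN (adjusted p = 0.0143), ADAMTS13 (adjusted p = 0.0136) and BMP1 (adjusted p = 0.011) also lost their LIM1215-R1 calls. ADAMTS9 moved from 1.92 to 1.99 in LIM1215-R1 after removal of GC content and length trends. GC content and length were known for 86.3% of genes tested. Depth limits MMP14, with 98 counts in all, and the 39 family genes without a test.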
